A study of Mus musculus with 8 samples.

Results

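Prox1 and Calb1 (dentate gyrus), Spink8 (CA1) and Pcp4 (CA2/CA3) are genes used to mark fields of the rodent hippocampus. Every probe whose annotated symbol was one of these 4 names and that had a value was taken. That gave 4 probes, 1 per gene, of 16383 probes with values. A further probe of Calb1 and a further probe of Pcp4 were empty on all arrays, so 4 of the 6 annotated probes were measured. RNA of the right hippocampus was hybridized to 8 one-colour oligonucleotide arrays, 2 per group. KTR were Cav3.2 knockout mice after trace fear conditioning (TFC) and a test of contextual memory, and KNR were naïve Cav3.2 knockout mice. WTR were wild-type mice after the same training and test, and WNR were naïve wild-type mice. The labels give the strain of all groups as C57BL/6. By the study's methods the wild-type mice were C57BL/6J and the knockouts came from heterozygotes crossed repeatedly onto C57/BL6. All mice were males of 6 to 8 weeks, housed individually, and each group was a pool of the right hippocampi of 3 mice.

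In TFC a tone and a foot shock are separated by an empty interval, and the mice were killed straight after being returned to the training context a day later. By the study's methods the mice were also placed in the conditioning chamber daily on the days before. TFC was not separated from these stays or from the context test, so training here means all of them. Cav3.2, the product of Cacna1h, is a low-voltage-activated calcium channel of the T type, and the knockout was constitutive rather than limited to the hippocampus or to the adult. The Cacna1h probe read 1036 and 1440 in KTR, 1551 and 1489 in KNR, 2084 and 2340 in WTR, against 2575 and 2385 in WNR. Each knockout array was below each wild-type array. The place of this probe relative to the disrupted part of the gene is not given, so the signal left in the knockouts cannot be read as channel mRNA or as its absence. Whether both arrays of a group held separate pools or the same RNA is not stated in the labels. Each p-value thus sets a difference against the spread of duplicate arrays, possibly a technical spread, and never against that between mice. Log2 values of duplicate arrays correlated across probes at 0.9881 to 0.9913, and those of arrays of different groups at 0.9465 to 0.9882. The number of arrays limits the precision.

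Signals enter the hippocampus from the entorhinal cortex and pass through a chain of fields. Granule cells of the dentate gyrus send mossy fibres to the pyramidal cells of CA3 and CA2, and CA3 cells project to CA1, from which the output leaves. Each field has its own set of expressed genes. On normalized arrays a probe for such a gene reads the relative share of its RNA in the whole-hippocampus sample. That share depends on how much of the dissected tissue is cells of that field and on the RNA each of them holds. A smaller part of such cells and less RNA per cell cannot be told apart in such bulk samples.

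Intensities are on a linear scale and were quantile normalized by the authors. Differences are of log2 intensity after values under 100 were set to 100. Each comparison was tested with limma on its own 4 arrays (the pairwise fit), with p adjusted by Benjamini-Hochberg over all probes tested and a threshold of 0.05. A joint fit, which takes in all 8 arrays, gives the same differences with a shared estimate of spread, and its results stand beside those of the pairwise fit. Throughout, ± after a mean is the SD (n = 2 arrays) and ± after a difference is the standard error in the joint fit. With 2 arrays a group, non-overlap is common. The arrays of the groups did not overlap for 58.8% of the tested probes in KNR vs WNR, 55.3% in KTR vs WTR, 56.7% in WTR vs WNR and 67.8% in KTR vs KNR.

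Prox1 is the homeobox transcription factor that sets and keeps the identity of dentate granule cells. Its gene lies on chromosome 1. Its probe read 201 and 159 in KTR, 405 and 366 in KNR, 352 and 383 in WTR, against 571 and 564 in WNR. The groups formed 3 levels, with KTR lowest, KNR and WTR overlapping in the middle and WNR highest. The means were 180 ± 29.7 in KTR, 386 ± 27.6 in KNR, 368 ± 21.5 in WTR and 567 ± 4.76 in WNR. The ratio of geometric means was 0.315 for KTR over WNR. The spread of Prox1 over the 8 arrays, an SD of 0.65 on the log2 scale, was larger than that of 98.7% of probes.

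Prox1 was lower after training in both genotypes and lower in knockouts in both training states. In trained against naïve knockouts (KTR vs KNR) it differed by -1.11 ± 0.14, a ratio of 0.464, with an adjusted p of 0.059 in the limma pairwise fit and 0.015 in the joint fit. In trained knockouts against trained wild-type mice (KTR vs WTR) the difference was -1.04 ± 0.14, a ratio of 0.486 (adjusted p = 0.13 pairwise and 0.026 in the joint fit). Both other differences were smaller. In trained against naïve wild-type mice (WTR vs WNR) it was -0.63 ± 0.14 (adjusted p = 0.099 pairwise and 0.045 in the joint fit). In naïve knockouts against naïve wild-type mice (KNR vs WNR) it was -0.56 ± 0.14 (adjusted p = 0.087 pairwise and 0.052 in the joint fit), which passed in neither fit. The joint fit thus called Prox1 lower in 3 of the 4 comparisons, and the pairwise fit in none. Leaving out 1 array leaves 1 array in its group, and the joint fit then called fewer of all probes in each comparison. Whether a call was kept therefore says little about Prox1. With 1 array left out, Prox1 gave -1.28 to -0.94 in KTR vs KNR and -1.21 to -0.87 in KTR vs WTR. In WTR vs WNR it gave -0.69 to -0.57. The arrays of the groups compared did not overlap, so these omissions could not change the sign.

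The promoters of Prox1 and Pcp4, the 2 markers called in the joint fit between trained and naïve wild-type mice (Prox1 lower, Pcp4 higher), are shown from RefSeq (GRCm38.p6), 250 bases before to 50 bases after the transcription start, written 5′ to 3′. Capitals mark E-boxes (CANNTG, which reads the same on both strands), the site bound by basic helix-loop-helix factors such as those of granule cell development. The first 2 are the 2 start sites of Prox1, at chr1:190170778-190171077 and chr1:190169466-190169765 on the minus strand, and the third is Pcp4 at chr16:96467356-96467655 on the plus strand. Calb1 and Spink8 had no entry in the table used.
Prox1 start site 1: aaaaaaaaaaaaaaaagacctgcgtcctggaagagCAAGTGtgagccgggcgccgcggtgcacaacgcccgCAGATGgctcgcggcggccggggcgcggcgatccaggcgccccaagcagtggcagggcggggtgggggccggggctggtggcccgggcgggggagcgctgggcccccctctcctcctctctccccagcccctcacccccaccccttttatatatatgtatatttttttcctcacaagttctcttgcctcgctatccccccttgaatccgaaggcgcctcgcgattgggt
Prox1 start site 2: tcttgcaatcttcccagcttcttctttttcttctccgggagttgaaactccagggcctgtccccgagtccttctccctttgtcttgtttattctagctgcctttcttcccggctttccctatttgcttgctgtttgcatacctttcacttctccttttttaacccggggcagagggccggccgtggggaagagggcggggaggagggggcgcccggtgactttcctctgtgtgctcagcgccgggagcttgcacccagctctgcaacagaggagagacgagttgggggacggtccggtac
Pcp4: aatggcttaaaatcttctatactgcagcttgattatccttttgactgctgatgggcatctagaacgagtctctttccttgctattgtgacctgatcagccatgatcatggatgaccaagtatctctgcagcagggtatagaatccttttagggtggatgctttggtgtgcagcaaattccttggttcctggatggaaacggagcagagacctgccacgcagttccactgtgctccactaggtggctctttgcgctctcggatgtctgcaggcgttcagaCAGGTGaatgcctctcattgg
The first Prox1 window held 2 E-boxes, the second held 0 and the Pcp4 window held 1. An E-box occurred in 72.3% of the 32851 promoter windows of this length, so such matches are common. On both strands, the GC box GGGCGG was found 2 times in the first Prox1 window, 1 time in the second and 0 times in the Pcp4 window, against 35.7% of all windows with at least 1. The TATA box TATAAA was found 1 time, in the first Prox1 window (13.6% of windows hold it), and the cyclic AMP response half-site TGACG in none of the 3 (20.8% of windows hold it). No motif searched contains another of them. GC content was 64.3% and 57.3% in the Prox1 windows and 48.7% in the Pcp4 window. A match is a description of letters and shows no binding.

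Calb1 encodes calbindin, a calcium-buffering protein that fills mature granule cells and their mossy fibres and is also made by superficial CA1 pyramidal cells and by some interneurons. Its gene lies on chromosome 4. Its probe read 433 and 468 in KTR, 706 and 531 in KNR, 750 and 783 in WTR, against 944 and 991 in WNR. The groups were ordered KTR, KNR, WTR and WNR from low to high with no overlap between neighbours. The means were 451 ± 24.8 in KTR, 618 ± 123 in KNR, 766 ± 23.7 in WTR and 967 ± 32.8 in WNR. The KNR duplicates differed by a ratio of 1.33, close to the ratio of geometric means of 1.36 between KNR and KTR. In all the ratio of the highest to the lowest array was 2.29.

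Calb1 read lower in knockouts than in wild-type mice in both training states, and the joint fit called the naïve comparison. The difference was -0.66 ± 0.15 in KNR vs WNR, a ratio of 0.633 (limma adjusted p = 0.10 pairwise and 0.044 in the joint fit). In KTR vs WTR it was -0.77 ± 0.15, a ratio of 0.588 (adjusted p = 0.13 pairwise and 0.052 in the joint fit), which passed in neither fit. The training differences were smaller and likewise passed in neither, at -0.34 ± 0.15 in WTR vs WNR (adjusted p = 0.16 and 0.20) and -0.44 ± 0.15 in KTR vs KNR (adjusted p = 0.15 and 0.077). As for Prox1, calls with 1 array left out say little, since 1 array then remained in a group. The size in KNR vs WNR depended on the KNR duplicates and was -0.86 without KNR replicate 1 and -0.46 without KNR replicate 2. In KTR vs KNR the same omissions gave -0.24 and -0.65.

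Spink8 encodes a Kazal-type serine protease inhibitor whose mRNA serves as a marker of CA1 pyramidal cells. Its gene lies on chromosome 9. Its probe read 948 and 807 in KTR, 2310.1 and 1948 in KNR, 2060.3 and 2401 in WTR, against 1650.2 and 1324 in WNR. KTR lay below every other group, WNR was next, and KNR and WTR overlapped at the top. The means were 877 ± 99.3 in KTR, 2129 ± 256 in KNR, 2230.5 ± 241 in WTR and 1487 ± 231 in WNR. Duplicate arrays differed by ratios of 1.17 to 1.25 in each group.

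Spink8 went opposite ways with training in the 2 genotypes. In knockouts it was lower after training, with a difference of -1.28 ± 0.16 in KTR vs KNR, a ratio of 0.412 (limma adjusted p = 0.058 pairwise and 0.016 in the joint fit). In wild-type mice it was higher after training, by 0.59 ± 0.16 in WTR vs WNR, a ratio of 1.505, but this passed in neither fit (adjusted p = 0.12 and 0.075). The genotype difference likewise turned with training. It was -1.35 ± 0.16 in KTR vs WTR, a ratio of 0.393 (adjusted p = 0.13 pairwise and 0.026 in the joint fit), and 0.52 ± 0.16 in KNR vs WNR, which passed in neither fit (adjusted p = 0.13 and 0.088). Of all probes tested, 0.191% had a lower difference than Spink8 in KTR vs WTR. The study, with another test (SAM) and a fold threshold, listed Spink8 among its genes lower in KTR vs WTR. With 1 array left out, Spink8 gave -1.401 to -1.155 in KTR vs KNR and -1.462 to -1.231 in KTR vs WTR. These fits left 1 array in a group, so their calls say little. The sign could not change, since the arrays of the groups compared did not overlap. Of 11 Kazal-type inhibitors looked for, only Spink8 and Spink10 had a probe with values, and Spink10 was above 100 on too few arrays to be tested.

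Pcp4 encodes PEP-19, a small protein with an IQ motif that binds calmodulin and speeds calcium exchange on it. Its mRNA marks CA2 pyramidal cells, and granule cells of the dentate gyrus make it as well, so it is not exclusive to CA2. Its gene lies on chromosome 16. Its probe read 15054 and 15737 in KTR, 14997 and 14235 in KNR, 17923 and 18657 in WTR, against 8777 and 10005 in WNR. WNR stood alone at the bottom and WTR at the top, and both knockout groups lay close together between them without overlapping. The means were 15396 ± 483 in KTR, 14616 ± 539 in KNR, 18290 ± 519 in WTR and 9391 ± 868 in WNR.

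Pcp4 was higher after training in wild-type mice and hardly differed with training in knockouts. In WTR vs WNR the difference was 0.96 ± 0.11, a ratio of 1.95 (limma adjusted p = 0.099 pairwise and 0.025 in the joint fit), and 0.327% of probes had a higher one. In KTR vs KNR it was 0.08 ± 0.11, with a 95% confidence interval of -0.20 to 0.35 in the pairwise fit (adjusted p = 0.64 and 0.63). Naïve knockouts exceeded naïve wild-type mice by 0.64 ± 0.11, a ratio of 1.56 (adjusted p = 0.084 pairwise and 0.027 in the joint fit). After training the knockouts were lower, with a difference of -0.25 ± 0.11, which passed in neither fit (adjusted p = 0.26 and 0.22). With 1 of the arrays compared left out, the differences were 0.87 to 1.06 in WTR vs WNR and 0.55 to 0.74 in KNR vs WNR. Calls in these fits say little, since 1 array remained in a group.

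**Figure D1:**
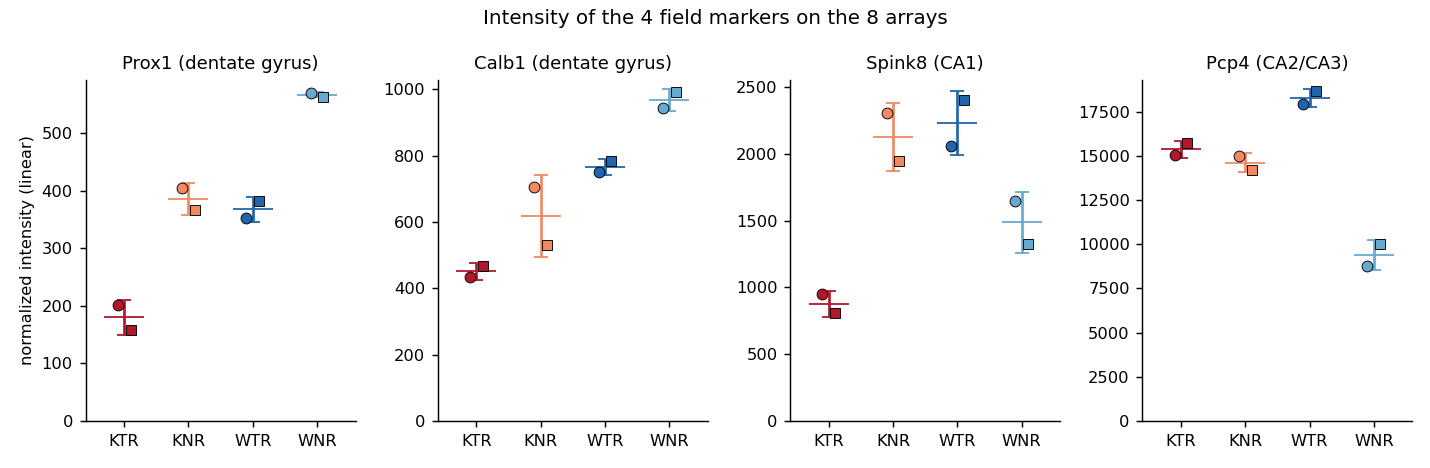
Normalized intensity (linear axis from 0) of Prox1, Calb1, Spink8 and Pcp4 on each array of KTR, KNR, WTR and WNR. Circles are replicate 1, squares replicate 2, and the lines give the mean and SD (n = 2). Prox1 and Calb1 are lowest in KTR and highest in WNR, Spink8 is lowest in KTR, and Pcp4 is lowest in WNR.

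Set side by side, the markers of the 3 fields did not follow 1 pattern. All 4 differed without overlap in each of the 4 comparisons, where 55.3% to 67.8% of all probes did. The limma pairwise fit called 0 of the 4 in each comparison, against 0% of probes in KNR vs WNR, WTR vs WNR and KTR vs KNR and 0.00634% in KTR vs WTR. An unadjusted pairwise p under 0.05 was held by 27.3% of all probes in KNR vs WNR, 21.6% in KTR vs WTR, 24.9% in WTR vs WNR and 33.9% in KTR vs KNR.

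The joint fit called 2 of the 4 markers in each comparison. In KNR vs WNR these were Calb1 lower and Pcp4 higher, where 8.02% of probes were called, 3.33% lower and 4.7% higher. In KTR vs WTR they were Prox1 and Spink8, both lower, where 2% of probes were called and 1.26% lower. In WTR vs WNR they were Prox1 lower and Pcp4 higher, where 6.25% of probes were called, 2.99% lower and 3.25% higher. In KTR vs KNR they were Prox1 and Spink8, both lower, where 15.9% of probes were called and 9.29% lower. The 4 comparisons share arrays, since each group enters 2 of them, so these counts do not repeat each other independently. With 4 markers and chosen genes, the counts are a description.

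The interaction of genotype and training, the training difference in knockouts minus that in wild-type mice, was tested in the joint fit, where 5.18% of probes passed and 3.35% did so with a negative sign. It was called for 2 of the 4 markers. For Spink8 it was -1.87 ± 0.23 (adjusted p = 0.032), and 0.105% of probes had a lower value. For Pcp4 it was -0.89 ± 0.15 (adjusted p = 0.037). For Prox1 it was -0.48 ± 0.19 (adjusted p = 0.15) and did not pass. For Calb1 it was -0.11 ± 0.21 (adjusted p = 0.76), with a 95% confidence interval of -0.59 to 0.38. With 1 of the 8 arrays left out, the interaction was -2.03 to -1.71 for Spink8 and -0.98 to -0.795 for Pcp4. These fits left 1 array in a group and called fewer of all probes, so whether a call was kept says little about the marker.

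**Figure D2:**
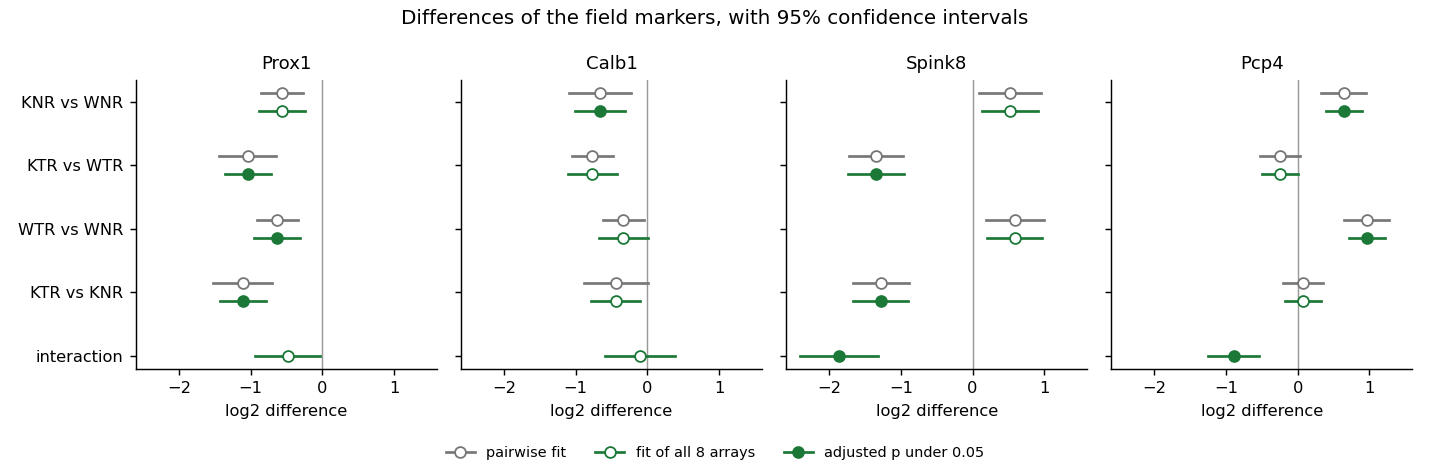
Log2 differences of the 4 markers in each comparison and in the interaction, with 95% confidence intervals from the pairwise fit (grey) and the joint fit of all 8 arrays (green). Filled points have an adjusted p under 0.05. No pairwise point is filled. Spink8 lies on opposite sides of 0 in WTR vs WNR and KTR vs KNR, and Pcp4 is near 0 in KTR vs KNR.

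Over the 8 arrays the log2 levels of Prox1 and Calb1, both of the dentate gyrus, correlated at 0.903. Spink8 correlated with Prox1 at 0.659 and with Calb1 at 0.53. Pcp4 ran against the dentate markers, at -0.572 with Prox1 and -0.502 with Calb1, and correlated with Spink8 at 0.181. These describe 4 groups of 2 arrays that were normalized together and carry no test.

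The other genes of each field were taken from lists that were written with earlier results of these data known. Of 17 dentate gyrus genes listed 11 were measured, of 12 CA1 genes 11 and of 19 CA2/CA3 genes 13, which leaves 9, 10 and 12 others, 31 in all. None of the 31 passed the limma pairwise fit in any comparison. In the joint fit 2 of 31 passed in KNR vs WNR, 1 higher and 1 lower, 0 in KTR vs WTR, 0 in WTR vs WNR, 1 (higher) in KTR vs KNR and 1 (lower) in the interaction. Of all probes 8.02%, 2%, 6.25%, 15.9% and 5.18% passed in the same order, so none of the 5 counts was above the share of all probes.

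The 9 other dentate genes had a median difference of -0.14 in KNR vs WNR, 0.02 in KTR vs WTR, -0.13 in WTR vs WNR and 0.04 in KTR vs KNR, beside medians of all probes of 0.00, 0.01, 0.00 and -0.01. Thus in KTR vs KNR and KTR vs WTR, where Prox1 was lower by more than 1 log2 unit, the median of the other dentate genes was within 0.04 of 0. Dsp, a desmosome protein of granule cells, stayed between 2421 and 2814 over the 8 arrays, and C1ql2, a secreted C1q-like protein of mossy fibre synapses, between 19702 and 21205. Ahcyl2 was the 1 gene of the list to pass, lower in KNR vs WNR with a difference of -0.54 ± 0.11 (adjusted p = 0.037 in the joint fit). It read 6289.7 and 6657 in KNR and 9253 and 9531 in WNR.

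The other extremes of this list did not pass. In KTR vs WTR the lowest difference was that of Maml2, a coactivator of Notch signalling, at -0.67, and the highest that of Npnt, an extracellular matrix protein, at 0.14. In KTR vs KNR they were Tiam1, a Rac exchange factor, at -0.65 and Npnt at 0.38. In WTR vs WNR they were the Polo-like kinase gene Plk5 at -0.39 and Maml2 at 0.29, and in KNR vs WNR the highest was Tiam1 at 0.27. Markers of immature granule neurons gave 0 calls in the 4 comparisons. Of 9 listed 8 were measured, with medians of -0.07 in KNR vs WNR, -0.04 in KTR vs WTR, 0.03 in WTR vs WNR and 0.09 in KTR vs KNR. Neurod1, a helix-loop-helix factor of granule cell differentiation, passed in the interaction (-0.90 ± 0.20, adjusted p = 0.0499).

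The 10 other CA1 genes did not share the behaviour of Spink8 in size. Their median was -0.02 in KNR vs WNR, -0.03 in KTR vs WTR, -0.17 in WTR vs WNR and -0.21 in KTR vs KNR, and none of the 10 passed in either fit. In WTR vs WNR, where Spink8 was 0.59 higher, 9 of the 10 lay below 0. In KTR vs KNR 7 of the 10 lay below 0, with Wfs1, the wolframin gene used to outline CA1, lowest at -0.50 (adjusted p = 0.056 in the joint fit). Its probe read 1033 and 841 in KTR and 1452 and 1201 in KNR. Fibcd1, another CA1 marker, had the lowest difference in KTR vs WTR at -0.59 (adjusted p = 0.13), with 1325 and 974 in KTR and 1711 and 1719 in WTR. Elsewhere the lowest were Man1a at -0.48 in KNR vs WNR and Pex5l at -0.52 in WTR vs WNR. The highest were Tyro3 at 0.18 in KNR vs WNR and 0.27 in KTR vs WTR, Ndst4 at 0.08 in WTR vs WNR, and Epha7 at 0.29 in KTR vs KNR.

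The 12 other CA2/CA3 genes had medians of 0.09 in KNR vs WNR, 0.02 in KTR vs WTR, 0.04 in WTR vs WNR and -0.05 in KTR vs KNR, and in WTR vs WNR the highest of them was Necab2 at 0.38, below Pcp4 at 0.96. Necab2, a calcium-binding protein of CA2 cells, was the 1 other gene to pass in KNR vs WNR, at 0.52 ± 0.11 (adjusted p = 0.037 in the joint fit). Necab2 read 959 and 1081 in KTR, 1287 and 1333 in KNR, 1151 and 1225 in WTR, against 894 and 931 in WNR. Its interaction passed too, at -0.74 ± 0.15 (adjusted p = 0.042). Rgs14, a regulator of G protein signalling that holds back plasticity in CA2, read 2157 and 2204 in KTR, 1450.1 and 1590.4 in KNR, 2214 and 1821 in WTR, against 1976 and 2058 in WNR. It rose in KTR vs KNR by 0.52 ± 0.12 (adjusted p = 0.037 in the joint fit), where Pcp4 hardly differed, and its difference was -0.41 in KNR vs WNR, the lowest of the list there, where Pcp4 was higher.

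Among the values of this list that did not pass, Npy2r, a neuropeptide Y receptor, was highest in KTR vs WTR at 0.66 and lowest in WTR vs WNR at -0.66, and its WTR duplicates lay apart at 4346 and 2618. Bok, a Bcl2 family gene, was lowest in KTR vs KNR at -0.65 and in the interaction at -0.93 (adjusted p = 0.096). Iyd was lowest in KTR vs WTR at -0.72. Amigo2, an adhesion protein of CA2 and CA3, lay between 3104 and 3579 on all 8 arrays.

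**Figure D3:**
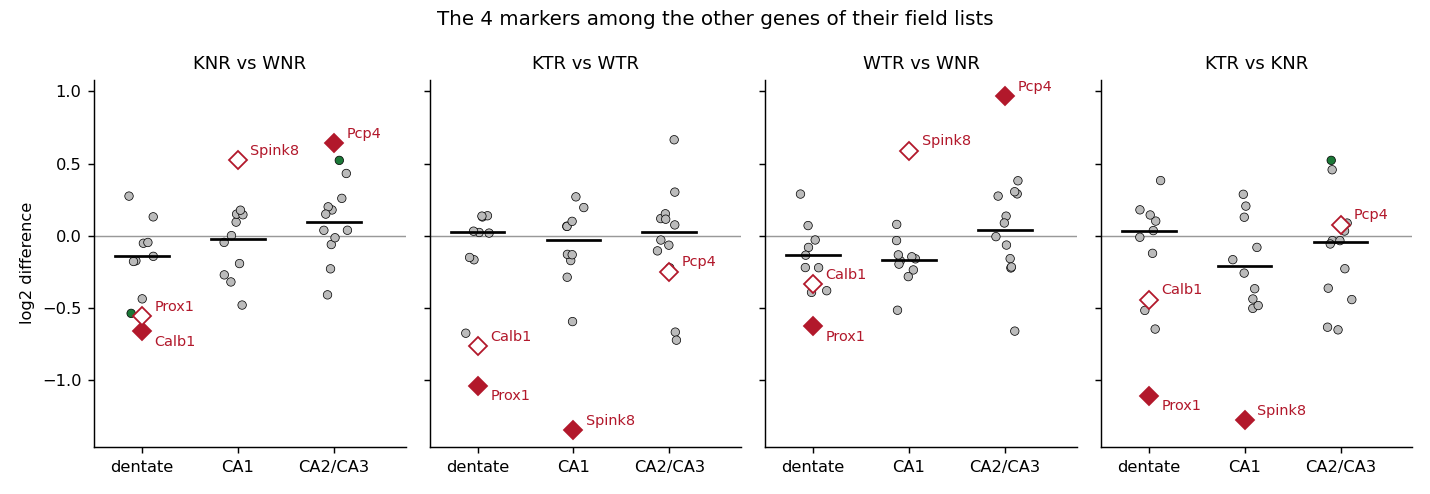
Log2 differences (joint fit of all 8 arrays) of the other measured genes of the dentate gyrus (9), CA1 (10) and CA2/CA3 (12) lists as points, in each comparison. Bars are the medians of these other genes, diamonds the 4 markers, and filled diamonds and green points have an adjusted p under 0.05. In KTR vs WTR and KTR vs KNR, Prox1 and Spink8 lie below all other genes of their lists.

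Calb1 and Pcp4 are also members of a wider family of calcium-binding and calmodulin-binding proteins, of which 18 of 21 listed genes were measured. In the joint fit 5 of the 18 were higher and 2 lower in KNR vs WNR, 4 higher and 2 lower in WTR vs WNR, 1 higher in KTR vs WTR, and 1 higher in KTR vs KNR. Of all probes 4.7% were higher and 3.33% lower in KNR vs WNR, 3.25% and 2.99% in WTR vs WNR, and 2% passed in either direction in KTR vs WTR and 15.9% in KTR vs KNR. The counts of the list were thus above the share of all probes in the first 3 of these comparisons, by a single gene in KTR vs WTR, and below it in KTR vs KNR. None passed the limma pairwise fit. The medians were 0.36, 0.17, 0.02 and 0.04 in that order. Beside Pcp4 and Necab2, those higher in KNR vs WNR included Cabp1, a neuronal calmodulin relative that binds calcium channels, by 0.86 ± 0.11 (adjusted p = 0.021). Cabp1 read 1090.3 and 984 in KNR and 593 and 551 in WNR. Necab1 was lower with Calb1 in that comparison, with a difference of -0.56 ± 0.09 (adjusted p = 0.027). Cabp7 was higher in KTR vs WTR by 1.25 ± 0.11 (adjusted p = 0.013), at 350 and 345 in KTR and 155 and 137 in WTR.

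In WTR vs WNR the calcium-binding genes with the smallest adjusted p beside Pcp4 were Cabp7 (-0.61 ± 0.11, adjusted p = 0.034) and Necab1 (-0.50 ± 0.09, adjusted p = 0.034), both lower, and S100b, a calcium-binding protein of astrocytes, which was higher (0.59 ± 0.12, adjusted p = 0.038). Necab1 was the gene higher in KTR vs KNR, by 0.49 ± 0.09 (adjusted p = 0.026). Calbindin's relative calretinin, Calb2, gave 0.47 in KNR vs WNR (adjusted p = 0.053) and 0.04 in KTR vs WTR, so it did not go with Calb1 in sign, and it passed in neither.

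Markers of other cell types moved with some of these differences. All genes of the interneuron, excitatory neuron, oligodendrocyte and astrocyte lists that were measured read above 100 on all arrays. The summed intensity of 11 interneuron genes was 51559.7 to 52947 in KTR, 53749 to 55828 in KNR, 55692 to 56275 in WTR and 44668 to 44876 in WNR, and that of 8 meningeal fibroblast genes was 17355 to 17563, 17845 to 19104, 17863 to 18764 and 13240.5 to 14069.5 in the same order. Both sums were lowest in WNR, as Pcp4 was, but not every gene was. Sst, at 25637 and 25771 in WNR, was the largest interneuron term, and Dcn and Igf2 the largest meningeal ones. Of 11 interneuron genes 7 were higher in KNR vs WNR and 9 in WTR vs WNR, with Gad2 and Reln lower in both. Of 8 meningeal genes 6 and 7 were higher, but Ogn read 702 and 716 in WNR against 301 and 294 in KTR. Of 9 excitatory neuron genes 6 were higher and 3 lower in both comparisons. Their sum was not lowest in WNR. Slc17a7 was higher in both in the limma joint fit, by 0.77 ± 0.11 (adjusted p = 0.023) and 0.78 ± 0.11 (adjusted p = 0.028). Its interaction passed too, at -1.10 ± 0.16 (adjusted p = 0.032). Syt1 was lower in KNR vs WNR (-0.43 ± 0.09, adjusted p = 0.041). The part of these genes in the Pcp4 differences was not tested. The sum of 8 oligodendrocyte genes was 59747 to 66580 in KTR, 77935 to 79444 in KNR, 79602 to 83054 in WTR and 73662 to 75809 in WNR. This sum was lowest in KTR, as Spink8, Prox1 and Calb1 were, but Mbp and Cldn11 made up most of it. In KTR Mbp read 32925 and 28589 and Cldn11 15543 and 13707. Of the 8 genes 7 were lower in KTR vs WTR and 6 in KTR vs KNR, and Mag was higher in both. The part of these genes in the differences of the 3 markers was not tested.

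Choroid plexus tissue lies against the hippocampus, and the sum of its 7 genes was 23073 to 25325 in KTR, 21549 to 21963 in KNR, 29136 to 36143 in WTR and 18073 to 18749 in WNR. The sum was highest in WTR and lowest in WNR, as Pcp4 was, but Ttr, the transthyretin gene, made up 86.0% to 91.7% of it on each array. Without Ttr the sum was 2371 to 2477 in KTR, 1923 to 2031 in KNR, 2775 to 2996 in WTR and 2366 to 2530 in WNR, still highest in WTR but lowest in KNR. The part of these genes in the Pcp4 differences was not tested either. The sum of 10 genes of striatum and thalamus was 6119 to 6437 in KTR, 6151 to 6317 in KNR, 5634 to 5751 in WTR and 5968 to 6057 in WNR. That of 8 genes of neocortex and subiculum was 19814 to 20496, 19382 to 19596, 19093 to 19448 and 18393 to 19848 in the same order. The sum of 9 astrocyte genes was 52450.2 to 56553 in KTR, 55839 to 59538 in KNR, 57866 to 61857 in WTR and 63517 to 64096 in WNR, and that of 10 microglial genes was 9199 to 9793, 9888 to 10601, 10232 to 10993 and 8911 to 9746 in the same order. The astrocyte sum was highest in WNR, as Prox1 and Calb1 were, but Gja1 and Slc1a3 made up most of it. Of the 9 genes 6 were lower in KNR vs WNR, WTR vs WNR and KTR vs KNR, and 5 in KTR vs WTR. The part of astrocyte genes in the marker differences was not tested.

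Over the 4 comparisons together, the joint fit called 8.04% of all differences tested, 3.82% higher and 4.22% lower, with a range of 2% to 15.9% between comparisons. Above that share were meningeal genes, with 6 higher and 4 lower of 32 differences tested, and choroid plexus genes, with 4 and 3 of 24. Also above it were interneuron genes with 5 and 1 of 44, excitatory neuron genes with 3 and 2 of 36, and astrocyte genes with 3 and 1 of 36. Microglial genes had 2 and 2 of 40, or 10%, slightly above it. Under it were genes of striatum and thalamus with 2 and 0 of 40, and genes of neocortex and subiculum with 0 and 1 of 28. Oligodendrocyte genes had 0 higher and 3 lower of 32, or 9.38%. In these counts each gene enters once per comparison, and the comparisons share arrays. Cldn11, a tight junction gene of myelin, was lower in KTR vs WTR (-0.72 ± 0.11, adjusted p = 0.038) and in KTR vs KNR (-0.65 ± 0.11, adjusted p = 0.023), and Opalin was lower in KTR vs KNR (-0.49 ± 0.13, adjusted p = 0.046). None of these passed the limma pairwise fit.

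**Figure D4:**
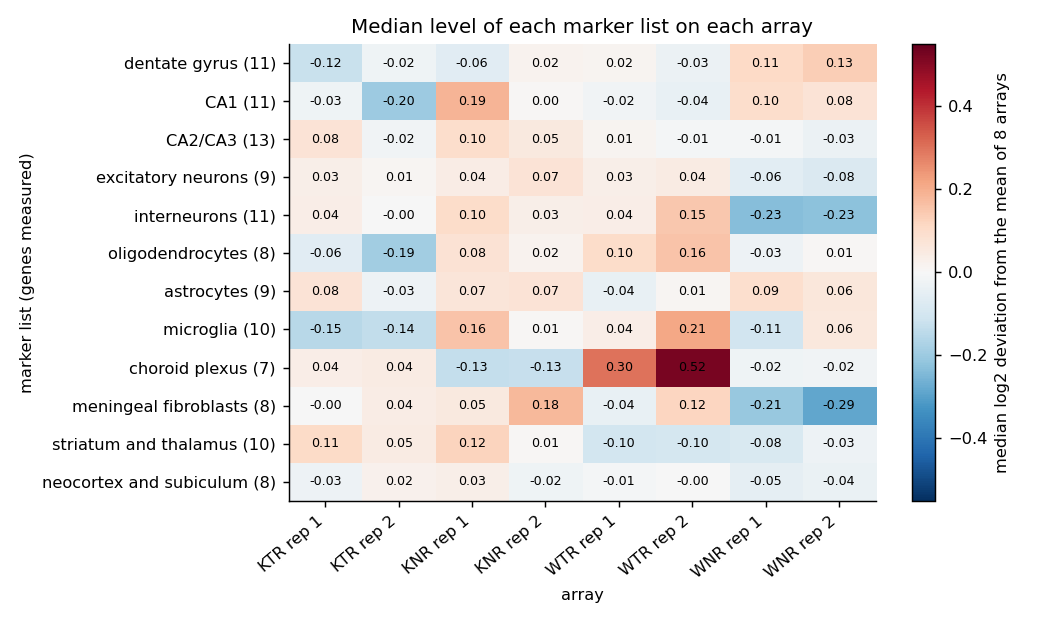
Median log2 deviation from the mean of the 8 arrays, over the measured genes of 12 marker lists (rows, number of genes in brackets), on each array (columns). The interneuron and meningeal lists are lowest in WNR, the choroid plexus list is highest in WTR, and the CA2/CA3 list stays between -0.03 and 0.10.

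Genes with the most similar profile were sought for each marker among 4825 probes with 1 gene symbol that were above 200 on all 8 arrays with an SD of at least 0.2. They are named for likeness only. The 3 nearest to Prox1 were Kif3b (r = 0.994), which encodes a kinesin motor subunit, Kcnk2 (0.992), a background potassium channel, and Kdm7a (0.990), a histone demethylase, and 285 probes had r over 0.9. The nearest to Calb1 were Sh3kbp1 (0.982), Arrdc3 (0.982) and Hdgfl3 (0.981), with 118 probes over 0.9. Kcnk2 read 1562 and 1402 in KTR, 2498 and 2436 in KNR, 2498 and 2551 in WTR, against 3062 and 3236 in WNR, with the same 3 levels as Prox1.

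The nearest to Spink8 were Dcaf13 (0.972), the oligodendrocyte gene Cldn11 (0.969) and Rapgef5 (0.969), a Rap exchange factor, with 84 probes over 0.9. Cldn11 read 15543 and 13707 in KTR, 22594 and 23172 in KNR, 23078 and 25151 in WTR, against 21066 and 20327 in WNR, so KTR was the 1 group that stood well apart. The nearest to Pcp4 were Rp9 (0.990), Dpm3 (0.984), a subunit of the dolichol-phosphate mannose synthase, and Med30 (0.984), a Mediator subunit, with 168 probes over 0.9. Rp9 read 2912 and 2923 in KTR, 2888 and 2710.3 in KNR, 3284 and 3456 in WTR, against 2113 and 2282 in WNR. All these correlations are over 8 arrays that form 4 groups, so they mostly repeat the order of the groups.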

How the data were processed

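Total RNA of right hippocampi was amplified, labelled with Cy5 and hybridized to Phalanx Mouse OneArray slides. The authors deposited 1 table of intensity values, quantile normalized and on a linear scale, for 29922 probes, of which 13539 were empty. Sorted values differed between arrays by 0.178% in the median and 13.9% at most. Background correction and spot filters are not given in the sources used here, and per the study's methods a floor of 100 came before normalization, whereas here it was set on the deposited values. The methods also speak of averaged technical replicates. Of the probes with values 13072 carried 1 gene symbol and 3311 none, and 2105 old symbols were updated.

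After a floor of 100 the values were taken to log2, and probes above 100 on at least 2 arrays of a fit were tested with limma 3.58.1 in R 4.3.3 (lmFit, eBayes, two-sided), with Benjamini-Hochberg adjustment. The script was tested on simulated data. SAM, the test of the methods, was not run, and limma stands in its place. Ratios are of geometric means. Groups came from the labels.

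The 4 genes and 15 gene lists were chosen with earlier results of these data known. Lists use 1 probe per gene, that with the highest mean. Genes were named by rule: the 4 markers, Cacna1h, the largest rise and fall of each field list, and the 3 nearest profiles. The rule also took up to 4 genes past the threshold per list and comparison. For the lists of other cell types and tissues only some of these are named, chosen after their values were seen. Outside the rule, Dsp, C1ql2, Amigo2, Calb2, Sst, Gad2, Reln, Dcn, Mbp, Mag, Gja1 and Slc1a3 were named after their values were seen. The examples with array values were chosen in the same way. Alternatives were other floors, no filter, quantile normalization after the floor, median centring, a fold threshold of 2, a replicate block, the joint fit of all 8 arrays, and leaving out arrays.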

Additional observations from a re-analysis of the deposited data

Results flagged for a closer look

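With 2 arrays per group, no group was large enough for a check of single arrays that lie far from the rest. Results stood out where the training difference itself differed between genotypes in the limma joint fit, which 5.18% of probes did. Spink8 was one, with a training difference in knockouts minus that in wild-type mice of -1.87 (adjusted p = 0.032), from a lower level in KTR than in KNR and a higher level in WTR than in WNR. Pcp4 was another, at -0.89 (adjusted p = 0.037), with KTR and KNR close together and WTR above WNR. Among the other field genes, Necab2 was the 1 that passed, at -0.74 (adjusted p = 0.042).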

How the results depend on the processing

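Of 360 values of the 4 markers under alternatives, 316 kept direction and side of the threshold, 22 passed where the pairwise fit had not, 20 no longer passed (all in the interaction of Spink8 or Pcp4) and 2 changed sign. The 2 were the Calb1 interaction, which lay between -0.31 and 0.10 with 1 array left out (0.10 without KNR replicate 1) and was 0.043 with both KNR replicate 1 and KTR replicate 2 left out. The pairwise fit called 0 markers in each comparison, also under other floors, no filter, both other normalizations and a fold threshold of 2. At a floor of 200 it called 210 of 15829 probes in KNR vs WNR, 15 of 15779 in KTR vs WTR and 95 of 15787 in WTR vs WNR. In KTR vs KNR it then called 2 higher and 4 lower of 15902. The joint fit called 2 in each comparison. The 360 values include fits with arrays left out, which left 1 array in a group, so their calls say little about a marker. With 1 array left out the sign could not change in the 4 comparisons, since no marker overlapped between the groups compared. With the 2-fold threshold the interaction called 1 marker, and 102 probes higher and 283 lower of 16204. A floor of 200 changed the Prox1 difference to -0.87 in KTR vs WTR and -0.94 in KTR vs KNR, where KTR replicate 2 lay below that floor. Over all probes the pairwise fit called 0 in KNR vs WNR, WTR vs WNR and KTR vs KNR and 1 in KTR vs WTR, against 1300, 1012, 2575 and 324 in the joint fit. Medians of the field lists over all their probes moved by less than the spread of their genes, the most for the CA2/CA3 interaction, at -0.28 against -0.04.

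Replicate numbers are shared by the groups, but the labels tie no arrays together, and deviations of same-numbered arrays correlated at 0.439 for KTR with KNR, 0.274 for WTR with WNR, and -0.384 to -0.243 for the other pairs of groups. With the replicate block the pairwise fit called 0 markers in KNR vs WNR, 0 in KTR vs WTR, 1 in WTR vs WNR (Pcp4, adjusted p = 0.046) and 3 in KTR vs KNR (Prox1, Spink8 and Calb1, adjusted p 0.00047, 0.00035 and 0.039), and the joint fit called 0, 1, 0 and 2. In the same order of comparisons the blocked pairwise fit called 0%, 0%, 3.29% and 38.8% of all probes and the blocked joint fit 0.0309%, 0.389%, 0% and 8.9%. With the block the interaction called 0 markers and 0.00617% of probes. Crossed numbers, a pairing added after seeing the data, gave 1 marker in KNR vs WNR, where 7.77% of probes were called, and 0 in KTR vs WTR, where 0.00634% were. The cause of these shifts was not tested.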
